A study of Mus musculus with 6 samples.

Results

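Endothelial cells line blood vessels, and 10 genes of their receptors, junctions and transcription factors are described here in ovaries of mice at E18.5. The genes are Kdr, Flt1, Tek, Tie1, Cdh5, Pecam1, Cldn5, Emcn, Sox17 and Sox18. They were taken by symbol from the 25239 genes of the deposited count table. All 10 were in the table, and all 10 passed the filter on low counts that left 14849 genes to test. Ovaries of C57BL/6 mice were compared between 3 WT libraries and 3 libraries labelled Hnrnpl-null. The protein made from Hnrnpl is a nuclear splicing regulator, and the series title concerns splicing in germ cells and the first ovarian follicles. The Hnrnpl-null libraries have CKO in their titles, and the name of the deposited table carries the word stra8. No label explains either, so the driver of the deletion and the cells it acted in are unknown from the sources used here. Both groups were prepared in the same way, with whole ovaries lysed in a buffer holding Liberase and DNase. Oocyte is the labelled cell type, but no sort is named, and nothing says which libraries came from separate animals. The p-values thus reflect variation among these libraries alone, and that variation may be technical.

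Blood vessels of the ovary supply the growing follicles, and they form by sprouting under the control of a pair of ligand and receptor systems. VEGFA acts through the tyrosine kinase KDR, while FLT1 binds the same ligand tightly with weaker signalling and is also made as a soluble decoy. Angiopoietins act through TEK, with which the related receptor TIE1 associates. Neighbouring endothelial cells are held together by VE-cadherin (Cdh5), by the adhesion molecule PECAM1 and, in tight junctions, by claudin 5 (Cldn5), and endomucin (Emcn) coats the luminal surface of veins and capillaries. The transcription factors SOX17 and SOX18 act in vessel formation, SOX17 in arteries and SOX18 also in lymphatic vessels.

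Total counts per library were 8949781 to 22401419, and the ribosomal RNA precursor gene Rn45s took 18.6% to 36.0% of them in 4 libraries. In WT replicate 1 it took 83.0% and in Hnrnpl-null replicate 3 it took 86.1%, leaving 3818414 and 1757572 counts for all other genes against 5727264 to 10980179 in the rest. Hnrnpl-null replicate 3 also stood apart on the first principal component of log levels. The 10 genes together had 1200, 4878 and 2568 counts in the WT libraries, by replicate number, and 4245, 4566 and 506 counts in the Hnrnpl-null libraries. Nearly all low counts are even, as if each read pair added 2, so the values of Hnrnpl-null replicate 3 rest on few fragments. Levels are given as counts per 1000000 counts of the scaled library size (CPM), listed in the order of replicates 1, 2 and 3. Hnrnpl itself was at 172, 169 and 145 CPM in the WT libraries, at 166, 173 and 213 CPM in the Hnrnpl-null libraries, and was not called (edgeR adjusted p = 0.50). Its level does not check the labels, because the counts run over all exons and all cells of the sample.

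Kdr was the 1 gene of the 10 with a higher mean level in the libraries labelled Hnrnpl-null, at 103 against 80.8 CPM, and the other 9 had lower means. Cdh5 showed the smallest unadjusted p of those lower, at 19.7 against 30.8 CPM. None of the 10 was called by the edgeR quasi-likelihood test at an adjusted p below 0.05 over all genes, where 4.46% of the genes tested were called. By direction these were 2.67% called higher and 1.79% called lower. For 3 of the 10 (Cdh5, Kdr and Tie1) the unadjusted edgeR p lay below 0.05, against 18.49% of all genes tested. DESeq2 and limma-voom each called 2 of the 10, Cdh5 lower and Kdr higher, and called 7.31% and 8.57% of all genes tested. With sample weights limma-voom called the same 2 and 8.23% of all genes tested. The ranges of the groups did not overlap for Kdr, Cdh5 and Emcn, which is 3 of 10 against 25.6% of all genes tested. The median log2 fold change of the 10 was -0.38, beside -0.01 over all genes tested. With 1 library left out the median of the 10 was -0.68 to -0.35, lowest without Hnrnpl-null replicate 1. In bulk libraries, a difference in the number of endothelial cells and a difference in RNA per endothelial cell cannot be told apart.

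**Figure D1:**
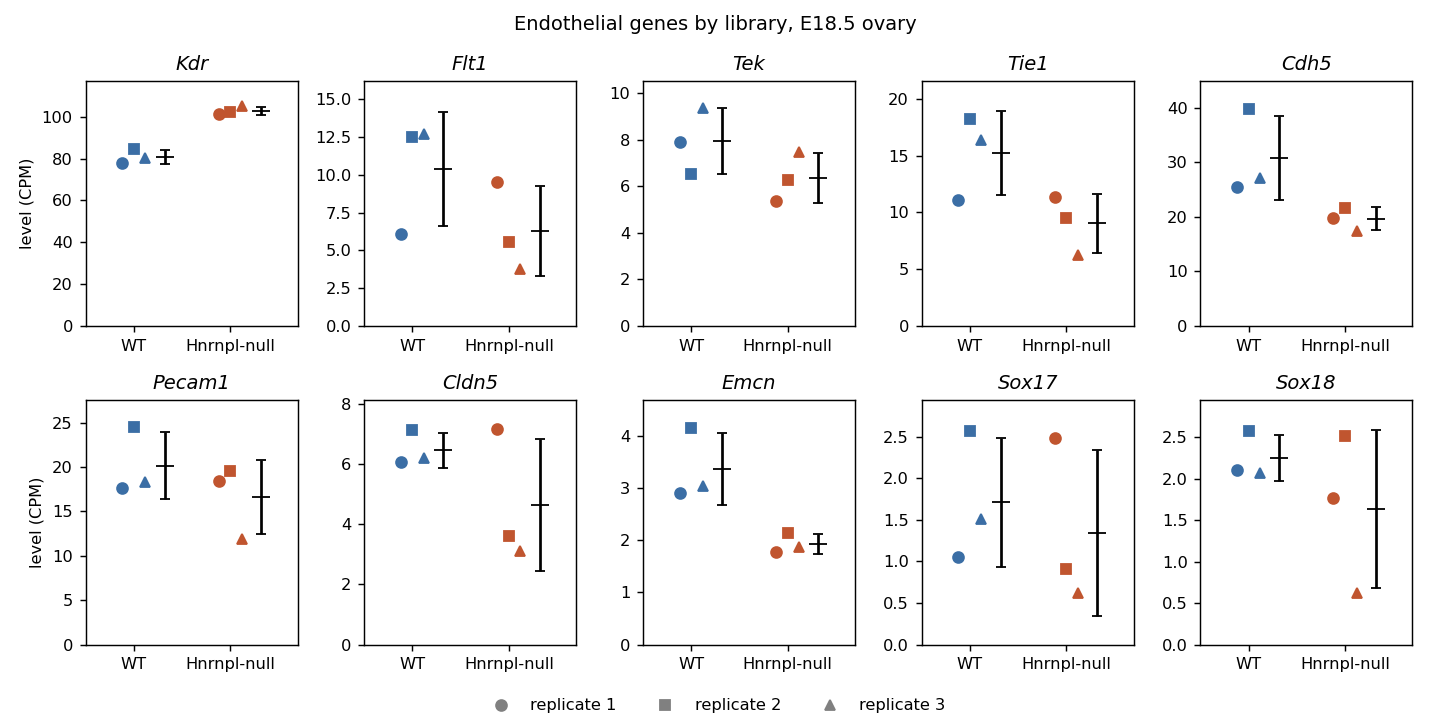
Level of each of the 10 genes in CPM (vertical axis, from 0) in the 3 WT and 3 Hnrnpl-null libraries, with 1 marker shape per replicate number and the mean ± SD in black. For Kdr the 3 Hnrnpl-null libraries lie above the 3 WT libraries, for Cdh5 and Emcn they lie below, and for the other 7 genes the groups overlap.

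The VEGF receptors lay on opposite sides. Kdr (chromosome 5, 75932827 to 75978455, mm10, minus strand) had 77.7, 84.3 and 80.2 CPM in the WT libraries and 101, 102 and 105 CPM in the Hnrnpl-null libraries. Every Hnrnpl-null library exceeded every WT library, and the spread within a group was small, with means of 80.8 ± 3.33 and 103 ± 1.99 CPM (SD, n = 3 each). Dividing Hnrnpl-null by WT gave a ratio of 1.27 (95% interval 1.09 to 1.48). The adjusted p was 0.079 in edgeR, 0.026 in DESeq2 and 0.033 in limma-voom. Kdr is also the best counted of the 10, with 3788 counts over WT and 5417 over Hnrnpl-null. Flt1 (chromosome 5, 147561604 to 147726011, minus strand) had 6.06, 12.5 and 12.7 CPM in WT and 9.53, 5.56 and 3.75 CPM in Hnrnpl-null. WT replicate 1 lay within the Hnrnpl-null range, so the groups overlapped. Its ratio was 0.633 (95% interval 0.386 to 1.04), with an edgeR adjusted p of 0.31. Without Hnrnpl-null replicate 1 the log2 fold change of Flt1 went from -0.66 to -1.10, again without a call. The counts per gene do not separate the membrane-bound from the soluble form of Flt1.

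The angiopoietin receptor Tek (chromosome 4, 94739289 to 94874976, plus strand) was at 7.90, 6.55 and 9.37 CPM in WT and 5.35, 6.28 and 7.50 CPM in Hnrnpl-null. The highest Hnrnpl-null value lay above the lowest WT value, and the ratio was 0.782 (95% interval 0.532 to 1.15, edgeR adjusted p = 0.51). Tie1 (chromosome 4, 118471191 to 118489849, minus strand) was at 11.1, 18.2 and 16.4 CPM in WT and 11.4, 9.52 and 6.25 CPM in Hnrnpl-null. Only WT replicate 1 and Hnrnpl-null replicate 1 overlapped, and the ratio was 0.617 (95% interval 0.431 to 0.883), with an unadjusted edgeR p of 0.012 and an adjusted p of 0.13. Without the libraries richest in Rn45s, WT replicate 1 and Hnrnpl-null replicate 3, Tie1 was called, with a log2 fold change of -0.73 and an edgeR adjusted p of 0.045, where 5.32% of 15636 genes tested were called.

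RefSeq promoter entries (GRCm38.p6, the assembly also known as mm10) were held for 6 of the 10 genes, namely Kdr, Flt1, Tek, Tie1, Emcn and Cldn5. The 250 bases before the start site are shown for Kdr, the 1 gene with a higher level, and for Flt1 and Tie1, 2 receptors with lower means. Capitals mark the letters AGGAAG, read as CTTCCT when the motif lies on the opposite strand. This is a form of the core bound by ETS factors, which many endothelial promoters use.
Kdr, chr5:75978456-75978705, minus strand: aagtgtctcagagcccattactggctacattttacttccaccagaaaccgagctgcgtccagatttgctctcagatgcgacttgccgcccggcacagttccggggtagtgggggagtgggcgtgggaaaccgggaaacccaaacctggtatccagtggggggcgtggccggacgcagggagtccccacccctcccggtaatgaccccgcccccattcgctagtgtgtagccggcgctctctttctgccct
Flt1, chr5:147726012-147726261, minus strand: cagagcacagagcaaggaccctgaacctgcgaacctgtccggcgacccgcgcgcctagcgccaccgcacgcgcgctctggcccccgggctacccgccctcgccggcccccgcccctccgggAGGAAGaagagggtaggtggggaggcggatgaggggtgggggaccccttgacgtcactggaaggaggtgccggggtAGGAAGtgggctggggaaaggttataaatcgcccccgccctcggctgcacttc
Tie1, chr4:118489850-118490099, minus strand: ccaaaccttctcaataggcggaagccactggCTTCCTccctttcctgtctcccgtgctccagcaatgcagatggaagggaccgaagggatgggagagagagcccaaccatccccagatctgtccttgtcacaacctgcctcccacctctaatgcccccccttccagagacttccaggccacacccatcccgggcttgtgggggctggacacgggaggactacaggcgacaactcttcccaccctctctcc
The Kdr window held 0 matches of this motif, the Flt1 window 2 (beginning at positions -129 and -53 from the start) and the Tie1 window 1. Emcn had 2 matches, and Tek and Cldn5, with lower means like Flt1 and Tie1, had 0. Other forms of the core were not searched, and the shorter letters GGAA or TTCC occur unmarked in each window shown. AGGAAG was present in 29.5% of the 32851 promoter windows of the same length. The letters ACAAT, or ATTGT on the opposite strand, are a core bound by SOX factors. Of the 6 windows only those of Tek (2 times) and Emcn (1 time) held them. At least 1 match was present in 27.7% of all windows. The GATA motif AGATAA, or TTATCT on the opposite strand, was in 0 of the 6 windows and in 9.99% of all windows. A match is a description of the letters, not a bound site, and the motifs do not overlap one another in these windows.

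Among the junction and surface proteins, Cdh5 (chromosome 8, 104101625 to 104144502, plus strand) had 25.6, 39.7 and 27.2 CPM in WT and 19.8, 21.7 and 17.5 CPM in Hnrnpl-null. All 3 Hnrnpl-null libraries lay below all 3 WT libraries, and WT replicate 2 was the highest. Means were 30.8 ± 7.76 and 19.7 ± 2.10 CPM (SD, n = 3 each), a ratio of 0.643 with a 95% interval of 0.491 to 0.841. The adjusted p was 0.065 in edgeR, 0.023 in DESeq2 and 0.029 in limma-voom. Without WT replicate 2 the log2 fold change went from -0.64 to -0.41 (edgeR adjusted p = 0.31), and without WT replicate 1 and Hnrnpl-null replicate 3 together it was -0.69 (edgeR adjusted p = 0.033).

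Pecam1 (chromosome 11, 106654213 to 106715281, minus strand) was at 17.7, 24.5 and 18.3 CPM in WT and 18.46, 19.6 and 11.9 CPM in Hnrnpl-null. Of the 3 Hnrnpl-null libraries only replicate 3 lay below the WT range, and the ratio of 0.850 had a 95% interval of 0.632 to 1.14 (edgeR adjusted p = 0.58). PECAM1 is known from leukocytes, platelets and fetal germ cells as well as endothelium, and the share of each in its count was not tested. Cldn5 (chromosome 16, 18776847 to 18778262, plus strand) was at 6.06, 7.13 and 6.20 CPM in WT and 7.17, 3.62 and 3.12 CPM in Hnrnpl-null. Hnrnpl-null replicate 1 was the highest of all 6 libraries and the other 2 were the lowest, with a ratio of 0.755 (95% interval 0.465 to 1.22, edgeR adjusted p = 0.56). Without that replicate the log2 fold change went from -0.41 to -0.91 (edgeR adjusted p = 0.20). Emcn (chromosome 3, 137341078 to 137431069, plus strand) was at 2.90, 4.15 and 3.03 CPM in WT and 1.77, 2.13 and 1.87 CPM in Hnrnpl-null. The groups were separate, at 3.36 ± 0.685 and 1.93 ± 0.186 CPM (SD, n = 3 each), but the counts were low, with 166 over WT and 104 over Hnrnpl-null. Its ratio was 0.572, the lowest of the 10, with a 95% interval of 0.310 to 1.05 and an edgeR adjusted p of 0.32.

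Both SOX factors had low counts. Sox17 (chromosome 1, 4490928 to 4497354, minus strand) had 8, 62 and 22 counts in WT and 59, 24 and 2 counts in Hnrnpl-null, or 1.05, 2.57 and 1.52 against 2.49, 0.914 and 0.625 CPM. WT replicate 2 and Hnrnpl-null replicate 1 were nearly level at the top, and the 2 counts of Hnrnpl-null replicate 3 amount to 1 read pair. The ratio was 0.834, with a 95% interval of 0.334 to 2.09, which spans 1 widely (edgeR adjusted p = 0.87). Sox18 (chromosome 2, 181669837 to 181671640, minus strand) had 16, 62 and 30 counts in WT and 42, 66 and 2 in Hnrnpl-null, or 2.11, 2.57 and 2.07 against 1.77, 2.51 and 0.625 CPM. The highest value was in WT replicate 2, 2 Hnrnpl-null libraries lay below the WT range and the other lay within it, with a ratio of 0.809 (95% interval 0.382 to 1.71, edgeR adjusted p = 0.81). For both factors the interval of the ratio spans 1, and a difference within it could not be seen with these counts and this spread between libraries.

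**Figure D2:**
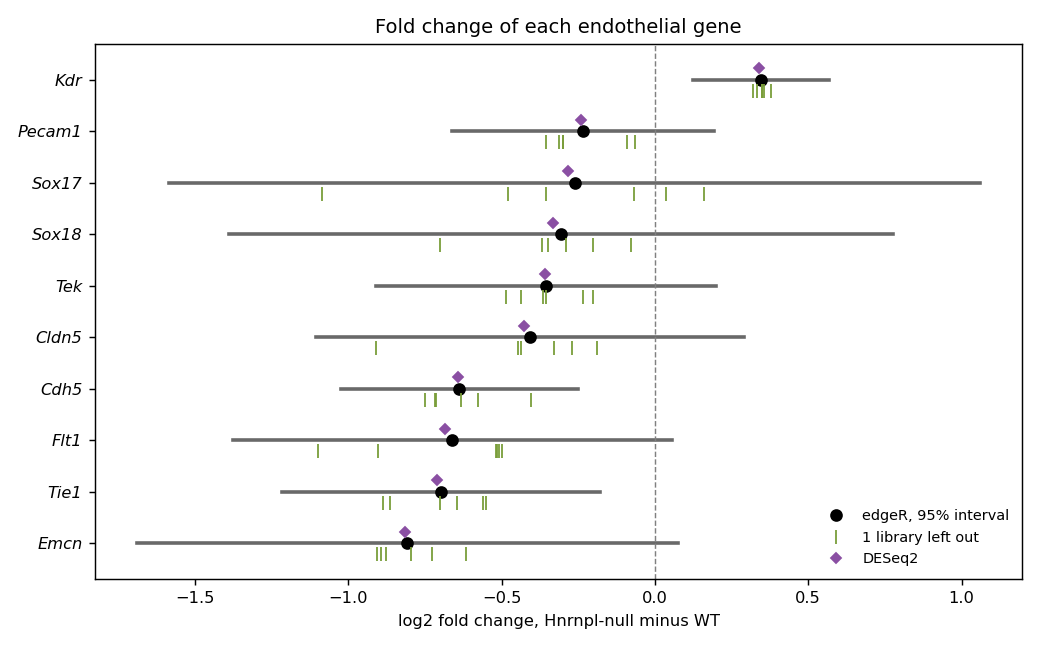
Log2 fold change of each gene (horizontal axis, Hnrnpl-null minus WT), with the edgeR estimate as a black point and its 95% interval as a grey line, the DESeq2 estimate as a diamond and the 6 estimates with 1 library left out as ticks. Kdr alone lies above 0 in edgeR and DESeq2, the intervals of Kdr, Cdh5 and Tie1 exclude 0, and the interval of Sox17 is the widest, with ticks on both sides of 0 when a library is left out.

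Levels of the 10 genes were compared with each other per kb of exonic length. In WT the order of mean levels was Kdr at 10.5 ± 0.434, Cdh5 at 7.73 ± 1.95, Pecam1 at 6.04 ± 1.13, Cldn5 at 4.57 ± 0.411, Tie1 at 3.93 ± 0.961, Emcn at 2.30 ± 0.469, Tek at 1.69 ± 0.300, Sox18 at 1.39 ± 0.173, Flt1 at 0.951 ± 0.345 and Sox17 at 0.418 ± 0.190 CPM per kb (SD, n = 3 each). Neighbours whose WT ranges overlapped were Cdh5 and Pecam1, Cldn5 and Tie1, Emcn and Tek, Tek and Sox18, and Flt1 and Sox17. In Hnrnpl-null, Kdr was at 13.4 ± 0.259 CPM per kb and Pecam1 and Cdh5 were nearly level, at 4.99 ± 1.25 and 4.94 ± 0.528 CPM per kb. The summed level of the 10 genes ranged over 158 to 202 CPM for WT and 158 to 179 CPM for Hnrnpl-null. Within that sum the share of Kdr was 49.2%, 41.7% and 45.3% in WT and 56.6%, 58.7% and 66.4% in Hnrnpl-null.

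Ratios of 2 genes within a library do not depend on the scaling between libraries. Pairs of Kdr with other members were added after the values were seen, so they are given without a test. The ratio of Kdr to Cdh5 counts per kb was 1.58, 1.10 and 1.53 in the WT libraries and 2.65, 2.44 and 3.12 in the Hnrnpl-null libraries. Kdr to Tie1 was 3.55, 2.34 and 2.47 in WT and 4.50, 5.42 and 8.49 in Hnrnpl-null. For Kdr to Pecam1 the values were 1.91, 1.50 and 1.90 in WT and 2.38, 2.26 and 3.84 in Hnrnpl-null, and for Kdr to Tek they were 6.03, 7.89 and 5.24 against 11.6, 9.95 and 8.58. In these 4 pairs every Hnrnpl-null library had more Kdr per unit of the partner than every WT library. Kdr was the only gene with a higher mean and these partners had lower means, so the ratios restate those levels. Kdr to Flt1, given below, overlapped between the groups, and ratios of Kdr to the remaining members were not computed.

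Another 8 pairs were tested by an exact two-sided permutation test over the 3 against 3 libraries, in which the smallest possible p is 0.1. Kdr to Flt1 was 18.3, 9.62 and 9.04 in WT and 15.2, 26.2 and 40.0 in Hnrnpl-null, a difference in mean log2 ratio of 1.11 (exact p = 0.2, adjusted p = 0.53 over the 8 pairs). WT replicate 1 lay within the Hnrnpl-null range. Pecam1 to Cdh5 was 0.826, 0.737 and 0.807 in WT and 1.11, 1.08 and 0.812 in Hnrnpl-null, so that Hnrnpl-null replicate 3 lay within the WT range (difference 0.33, exact p = 0.2). Emcn to Cdh5 was 0.309, 0.285 and 0.305 against 0.244, 0.268 and 0.292, a difference of -0.16 (exact p = 0.2). The other 5 pairs, Sox17, Sox18 and Cldn5 to Cdh5, Tek to Tie1 and Sox17 to Sox18, had differences of -0.05 to 0.45 with an exact p of 0.5 or more. None of the 8 pairs had groups that did not overlap.

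**Figure D3:**
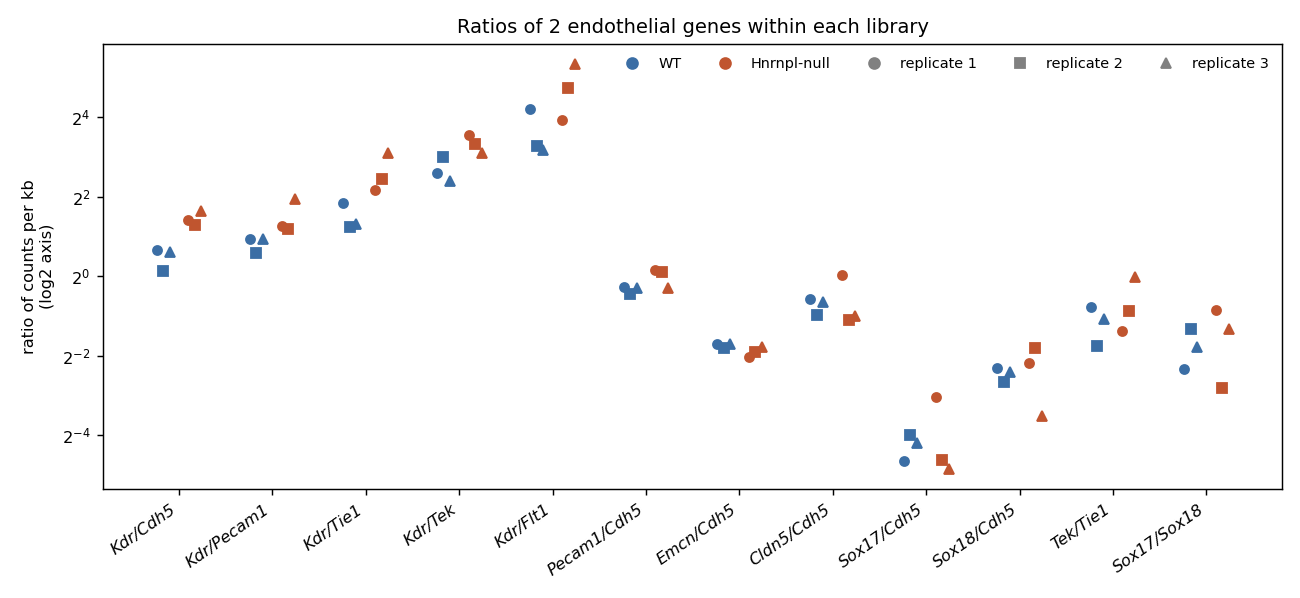
Ratio of counts per kb of 2 genes in each library (vertical axis, log2 scale), for 12 pairs, with WT in blue, Hnrnpl-null in orange and 1 marker shape per replicate number. The 4 ratios of Kdr to Cdh5, Pecam1, Tie1 and Tek are higher in the 3 Hnrnpl-null libraries than in the 3 WT libraries, and in the other 8 pairs the groups overlap.

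Of the ligands, co-receptors and effectors of the VEGF and angiopoietin pathways, 1 of 18 tested was lower and 17 were not called. The list had 4 at an unadjusted edgeR p below 0.05 and a median of 0.09. Over all genes tested, edgeR called 2.67% higher and 1.79% lower, with 18.49% at an unadjusted p below 0.05. The lower gene was Vegfa (chromosome 17, 46016993 to 46032377), the main ligand of Kdr. Vegfa was at 62.2, 64.3 and 58.4 CPM in WT and 47.5, 39.4 and 37.5 CPM in Hnrnpl-null. The groups did not overlap, and Vegfa fell by 0.56 on the log2 scale with an SE of 0.12 (edgeR adjusted p = 0.022). It no longer passed when any 1 WT library or Hnrnpl-null replicate 2 was left out (edgeR adjusted p of 0.055 to 0.12). The semaphorin receptor Plxnd1 had 94.3 ± 15.1 CPM in WT and 70.6 ± 4.14 in Hnrnpl-null and was not called by edgeR, but was called lower by DESeq2 and limma-voom. Flt4, the receptor for VEGFC in lymphatic vessels, had 6.31 ± 2.05 and 3.40 ± 1.33 CPM without being called, and neither was Svep1, a matrix protein that binds angiopoietins, at 52.0 ± 3.63 and 66.0 ± 7.88 CPM.

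Other endothelial genes gave 1 higher call among 29 tested of 30, where 2.67% of all genes tested were called higher. Their median was -0.11, and 7 had an unadjusted edgeR p below 0.05, against 18.49% of all genes tested. Gata2 (chromosome 6, 88193891 to 88207032), a transcription factor of endothelium, blood progenitors and mast cells, was at 24.8, 21.1 and 22.5 CPM in WT and 39.8, 34.4 and 33.7 CPM in Hnrnpl-null. The groups were separate, and Gata2 rose by 0.67 on the log2 scale with an SE of 0.14 (edgeR adjusted p = 0.015). Leaving out either replicate 2 or 3 of WT, or either 1 or 2 of Hnrnpl-null, ended the Gata2 call (edgeR adjusted p of 0.050 to 0.089). Mmrn2, a matrix protein around endothelial cells, was at 8.64 ± 2.01 and 3.002 ± 2.15 CPM (edgeR adjusted p = 0.063), and the secreted endothelial factor Egfl7 was at 16.8 ± 2.46 and 9.85 ± 2.07 CPM (edgeR adjusted p = 0.063). DESeq2 and limma-voom called both lower. In the other direction, limma-voom called Cd34 higher, with or without sample weights, while DESeq2 did not. Cd34 averaged 35.7 ± 1.44 CPM over WT and 46.6 ± 12.3 CPM over Hnrnpl-null, with overlapping ranges (edgeR adjusted p = 0.19). EdgeR called Cd34 higher without Hnrnpl-null replicate 3, whether WT replicate 1 was kept or also left out. Tal1, a factor shared by blood and endothelium, had 2.69 ± 0.531 and 5.07 ± 0.851 CPM without being called.

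Genes of arterial, venous, tip and lymphatic endothelium gave 2 lower calls among 16 tested of 20, where 1.79% of all genes tested were called lower. Of the 16, 4 had an unadjusted edgeR p below 0.05, against 18.49% of all genes tested, and the list median was -0.11. Dll4 (chromosome 2, 119325784 to 119335666), the Notch ligand of arterial and tip cells, was at 7.64, 9.20 and 6.06 CPM in WT and 2.11, 1.52 and 0 CPM in Hnrnpl-null. A count of 0 in Hnrnpl-null replicate 3 allows up to 1.87 CPM there, taking 6 counts as the limit for counting error. The log2 difference of Dll4 was -2.30 with an SE of 0.45 (edgeR adjusted p = 0.011), with exons that overlap those of Gm14207. Gja4 (chromosome 4, 127311420 to 127314039), a connexin of arterial endothelium that oocytes also make, was at 4.48, 7.21 and 5.93 CPM in WT and 1.56, 1.29 and 0.625 CPM in Hnrnpl-null, a log2 difference of -2.18 with an SE of 0.39 (edgeR adjusted p = 0.0061). Both calls were lost without WT replicate 2 (edgeR adjusted p = 0.092 and 0.074), and that of Dll4 also without Hnrnpl-null replicate 2 (edgeR adjusted p = 0.062). The apelin receptor Aplnr was at 17.4 ± 0.200 and 10.7 ± 2.48 CPM, not called by edgeR but called lower by DESeq2 and limma-voom. Efnb2, an arterial ephrin, and the lymphatic glycoprotein Pdpn were not called, at 56.6 ± 3.59 and 70.8 ± 2.93 CPM and at 46.7 ± 3.39 and 60.4 ± 16.8 CPM.

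Cytoplasmic and membrane partners of endothelial junctions gave 0 calls by edgeR among 22 tested, where 4.46% of all genes tested were called. The list had 5 at an unadjusted edgeR p below 0.05, against 18.49% of all genes tested, and a median of 0.05. DESeq2 called 1 of the 22 lower (Afdn) and limma-voom called 2 lower (Afdn and Cgn). Of all genes tested these methods called 7.31% and 8.57% in either direction. Afdn, a scaffold of adherens junctions, had means of 113 ± 2.63 CPM for WT and 87.5 ± 9.42 CPM for Hnrnpl-null (edgeR adjusted p = 0.082). Cgn, a tight junction protein of epithelia and endothelia, was at 55.4 ± 6.88 and 42.7 ± 3.94 CPM, and F11r, a junctional adhesion molecule, at 64.5 ± 2.07 and 53.3 ± 3.21 CPM. Sinusoidal endothelial genes gave 0 calls among 7 tested of 8 by edgeR, DESeq2 or limma-voom, with 1 (Stab2) at an unadjusted edgeR p below 0.05 and a median of -0.11, while Mrc1 was called higher by edgeR without Hnrnpl-null replicate 1. That median was 0.18 without WT replicate 2, when the median of the other endothelial genes was 0.05. The scavenger receptor Stab2 was at 8.92 ± 0.393 and 5.54 ± 1.48 CPM, and the receptors Mrc1 and Fcgr2b, which macrophages also make, were at 16.2 ± 1.07 and 23.0 ± 8.33 CPM and at 4.77 ± 2.09 and 7.05 ± 1.27 CPM.

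**Figure D4:**
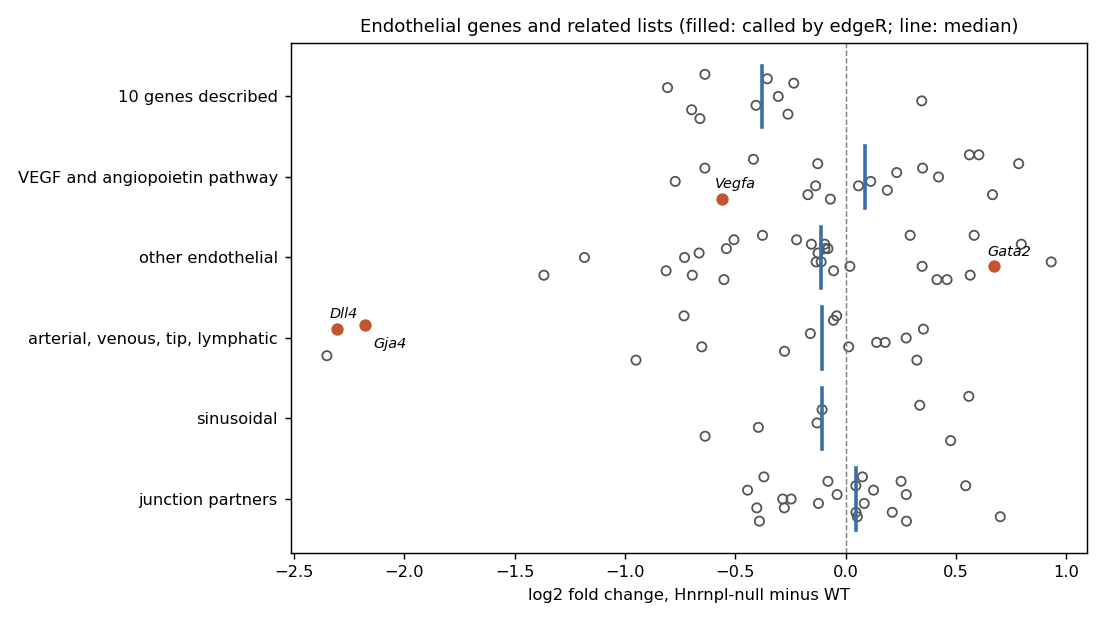
Log2 fold change (horizontal axis, Hnrnpl-null minus WT) of every tested gene in the 10 described and in 5 related lists, with genes called by edgeR filled and named and the list median as a vertical line. The called genes are Vegfa, Dll4 and Gja4 below 0 and Gata2 above 0, while 9 of the 10 genes described lie below 0 without being called.

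In the edgeR test reported, markers of other cell types were called in the oocyte, leukocyte, myeloid progenitor, stroma and pregranulosa lists. None was called in the other lists below, but some alternatives called a few. Of all genes tested, edgeR called 2.67% higher and 1.79% lower, and 18.49% had an unadjusted edgeR p below 0.05. The shares called by DESeq2 and limma-voom were 7.31% and 8.57%. DESeq2 called Myh11 (smooth muscle) lower and Slc4a1 (erythroid) higher. Limma-voom called Myh11 lower, and Tagln (smooth muscle), Alas2 (erythroid) and Slc4a1 higher. Alas2 and Slc4a1 were also called higher by edgeR without Hnrnpl-null replicate 3, and either or both in several other edgeR settings. Without both libraries richest in Rn45s, or with no low-count filter, edgeR called Tagln higher and Spp1 (osteoblast) lower. All 6 oocyte markers were detected, 5 of the 6 were called lower, and their summed level was 219 to 243 CPM over the WT and 135 to 158 CPM over the Hnrnpl-null libraries. With 1 library left out, 2 to 5 oocyte markers were called lower, the fewest (Sycp3 and Nobox) without Hnrnpl-null replicate 2 and 3 without WT replicate 3. Leukocyte markers, 3 of 4 tested called higher, summed to 40.5 to 47.4 and 118 to 130 CPM. All 5 myeloid progenitor markers were called higher, with sums of 1.58 to 2.49 and 506 to 671 CPM. Stroma markers, 2 of 5 called higher (Col1a1 and Dcn), summed to 2982 to 3189 CPM and 4612 to 5041 CPM. Most of that sum was Col1a1, without which it was 298 to 316 and 356 to 372 CPM. Neither stroma call was made without Hnrnpl-null replicate 2, and Col1a1 alone was called when replicate 2 or 3 of WT, or replicate 1 of Hnrnpl-null, was left out. Pregranulosa markers, 1 of 6 called higher (Kitl), had a median log2 fold change of 0.05 and summed to 358 to 377 CPM and 439 to 481 CPM. Without Kitl their sums overlapped, at 286 to 299 and 269 to 307 CPM. Pericyte and smooth muscle markers, with 0 of 8 called by edgeR and 4 at an unadjusted p below 0.05, summed to 187 to 235 CPM and 205 to 230 CPM. Platelet and megakaryocyte markers, with 0 of 2 tested of 6 called by edgeR and both at an unadjusted p below 0.05, summed to 5.80 to 10.3 CPM and 8.72 to 17.8 CPM. Erythroid markers, with 0 of 3 tested of 5 called by edgeR and 2 at an unadjusted p below 0.05, summed to 20.9 to 36.0 CPM and 28.7 to 73.0 CPM. The hepatocyte markers Alb and Fgb had no counts in any library, and the 6 hepatocyte markers summed to at most 1.32 CPM. Osteoblast markers summed to 6.41 to 13.7 and 4.38 to 6.09 CPM, with 0 of 3 tested of 5 called by edgeR and 1 at an unadjusted p below 0.05. The part of these cell types in the values of the 10 genes was not tested.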

How the data were processed

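Ovary RNA was sequenced in 3 WT and 3 Hnrnpl-null libraries at E18.5. The deposited values are raw counts per gene, made by the authors and laid out as featureCounts writes them, per the file headers. The submitters' processing notes name featureCounts 2.0.6, HISAT2 2.2.1, the build mm10 and STAR 2.7.11a, without saying what each did. Sources used here do not give the annotation, the strand setting or the handling of multi-mapped reads. The deposited exon lengths gave levels per kb, and no exon of the 10 genes overlaps that of another gene. Of the counts from 1 to 20, 93.4% to 98.4% per library were even, as when both mates are counted. Limits for a count of 0 cover counting error only, and the 95% intervals of ratios come from the edgeR fit.

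Counts were tested in R 4.3.3 with edgeR 4.0.16 (filterByExpr, TMM, glmQLFit, glmQLFTest), with no covariate beside genotype and two-sided p-values. Calls were made at a Benjamini-Hochberg adjusted p below 0.05 over all genes tested. Standard errors were derived from the F statistic. The script was tested on simulated data. The alternatives were DESeq2 1.42.0, limma 3.58.1 voom, other scalings and filters, libraries left out and the replicate number as a block. The 10 genes, the 15 other lists (165 symbols with the 10) and the alternatives were chosen with earlier results of these data known. Of those symbols, 1 was matched through a RefSeq synonym. The naming rule took all 10 genes, Hnrnpl, the called genes of each related list and up to 3 others with the smallest p, and the genes most like Kdr and Cdh5. Cd34 and some markers of other cell types were named beside it.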

Additional observations from a re-analysis of the deposited data

How the results depend on the processing

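Over 19 alternatives for each of the 10 genes, 188 of 190 fold changes kept their direction. The exceptions were Sox17, which ranged from -1.09 to 0.16 with 1 library left out, at 0.16 without WT replicate 2 and at 0.04 without Hnrnpl-null replicate 2. Of the 10 genes, 2 were called with DESeq2, limma-voom, limma-voom with sample weights or robust dispersions, in each case 1 higher (Kdr) and 1 lower (Cdh5). Only 1 was called, Cdh5 lower, with no low-count filter or with halved counts, and 2 were lower (Cdh5 and Tie1) without both libraries richest in Rn45s. Over all genes, robust dispersions called 931 of 14849 (6.27%), halved counts 812 of 13572 (5.98%), no filter 5.48% of 20139 and the fit without those libraries 832 of 15636 (5.32%). Leaving out 1 library gave 0 to 0 called members by edgeR in 6 fits. The calls over all genes, 663 in the test reported, were 4 with library totals alone, 1104 with no low-count filter, 1086 with DESeq2, 1273 with limma-voom, 1222 with sample weights and 249 to 853 with 1 library left out. The cause was not tested. With library totals alone the 4 calls were 3 higher and 1 lower, against 397 and 266. No scaling moved the median log2 fold change of all genes by over 0.1. With the replicate number as a block, edgeR called 444 genes and 0 of the 10, with 3 at an unadjusted p below 0.05 and a median of -0.50. The median of the 10 was -0.68 to -0.35 with 1 library left out. Deviations of same-numbered libraries correlated at -0.12, 0.09 and -0.09, and 1 of the 3 numbers matched best with its own. The highest r, 0.15, was between WT replicate 1 and Hnrnpl-null replicate 3, the libraries richest in Rn45s. With so few libraries these values cannot settle whether the numbers pair them. For the other 19 endothelial and pathway genes taken by the naming rule, 361 of 361 fold changes kept their direction, with 15 calls lost and 30 gained. With 1 library left out, 4 of the 8 tested ratios changed the sign of their difference, namely Sox17 to Cdh5 (-0.45 to 0.46), Sox18 to Cdh5 (-0.39 to 0.46), Cldn5 to Cdh5 (-0.31 to 0.25) and Sox17 to Sox18 (-0.25 to 0.73). Sox17, Sox18 and Emcn had the fewest counts of the 10.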

Other observations

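Among 9926 other genes with a mean of at least 5 CPM, those whose log2 CPM was most like that of Kdr over the 6 libraries were Macroh2a1, a histone variant gene (Pearson r = 0.996), Myo1g, a myosin gene (r = 0.996), and Rbmxl1 (r = 0.995). For Cdh5 they were Epn2, an endocytic adaptor gene (r = 0.991), Denn2b (r = 0.988) and Dnajb1, a heat shock co-chaperone gene (r = 0.987). The 6 points share the group difference and the same libraries, so these values only describe likeness. Among the 10 genes themselves, Cdh5 was most like Emcn (r = 0.97) and Tie1 most like Flt1 (r = 0.95), while Kdr had a negative r with each of the other 9, from -0.82 with Emcn to -0.29 with Sox17.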
